A study of Mus musculus with 6 samples.

Results

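DNA damage signalling and repair were followed through 9 genes, chosen by symbol as checkpoint kinases, end joining genes and a homologous repair gene: Atm, Atr, Prkdc, Chek1, Chek2, Trp53bp1, Xrcc5, Xrcc6 and Brca1. All 9 were found among the 52550 genes listed. The messenger RNA came from bone marrow cells of mice that the labels call hematopoietic stem cells, in 3 wild-type (WT) and 3 knockout (KO) libraries. Both groups carried floxed alleles of Ppp2ca (Ppp2caf/f), which encodes the alpha form of the catalytic subunit of protein phosphatase 2A, and no Cre is named for WT. The KO genotype, VAV1crePpp2caf/f, adds a Cre recombinase whose Vav1 driver is active across blood cells, so the deletion is not limited to stem cells. Age, surface markers used for sorting and the number of animals per library were not given in the sources used here, so p-values measure only the spread between these 6 libraries, which may be technical. The comparison asked which of these genes differed in transcript level between KO and WT.

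A cell answers a DNA break with kinases that mark the lesion and slow the cell cycle. Atm and Prkdc respond mainly to double-strand breaks and Atr to single-stranded DNA at stalled forks, and they pass the signal to the kinases Chek2 and Chek1. Breaks are joined end to end by a machinery that the Ku proteins (Xrcc5, Xrcc6) start and Trp53bp1 favours, or copied from the sister chromatid after Brca1 has promoted resection of the ends. Protein phosphatase 2A and its relatives remove phosphates that these kinases add. Quiescent blood stem cells are known to rely on end joining, since they have no sister chromatid. Transcript levels do not report kinase activity or phosphorylation, which these data do not measure.

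Promoters are shown for the 2 genes called below, Trp53bp1 and Xrcc5, and for Xrcc6, the Ku partner of Xrcc5, as 250 bases before to 50 bases after the RefSeq gene start (GRCm38.p6), 5′ to 3′ on the gene's strand. Capitals mark any match, on either strand, to 3 motif types known from cell cycle promoters, which are the E2F-type letters TTTGGCG or TTTCCCG, the cell cycle homology region with the letters TTTGAA or TTCGAA, and the CCAAT box. Trp53bp1 lies at chr2:121271358-121271657 on the minus strand, Xrcc5 at chr1:72307171-72307470 on the plus strand and Xrcc6 at chr15:82016119-82016418 on the plus strand.
Trp53bp1: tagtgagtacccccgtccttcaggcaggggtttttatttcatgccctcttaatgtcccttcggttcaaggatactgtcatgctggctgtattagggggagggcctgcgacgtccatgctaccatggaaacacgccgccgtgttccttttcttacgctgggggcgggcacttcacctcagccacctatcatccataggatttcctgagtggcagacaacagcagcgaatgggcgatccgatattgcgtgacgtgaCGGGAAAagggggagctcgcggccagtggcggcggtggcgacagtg
Xrcc5: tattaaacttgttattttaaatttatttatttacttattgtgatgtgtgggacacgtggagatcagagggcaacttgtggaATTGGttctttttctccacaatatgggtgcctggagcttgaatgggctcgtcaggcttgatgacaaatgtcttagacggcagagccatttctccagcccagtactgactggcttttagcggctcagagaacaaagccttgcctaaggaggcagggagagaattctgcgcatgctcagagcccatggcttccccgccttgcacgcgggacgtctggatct
Xrcc6: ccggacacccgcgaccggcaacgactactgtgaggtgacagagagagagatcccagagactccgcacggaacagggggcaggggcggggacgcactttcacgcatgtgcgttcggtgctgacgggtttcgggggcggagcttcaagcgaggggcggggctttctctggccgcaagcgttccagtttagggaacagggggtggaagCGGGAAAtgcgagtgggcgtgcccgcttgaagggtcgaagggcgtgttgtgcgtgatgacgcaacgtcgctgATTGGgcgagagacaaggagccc
Trp53bp1 held an E2F-type match at positions 5 to 11 after the gene start, and Xrcc6 held one at positions −45 to −39. Xrcc5 held only a CCAAT box match, at −169 to −165. Among the 8 genes with an entry in the table, Chek1 and Chek2 also held an E2F-type match, against 4.84% of all 32851 promoters of this length. Atm, Brca1, Chek2 and Xrcc6 also held a CCAAT box, as did 37.4% of all promoters. Of the cell cycle homology region, Atr held the letters TTCGAA at −215 to −210, as did 1.56% of all promoters. None of the 8 genes held TTTGAA, against 17.9% of all promoters. The GC content was 48.0% for Xrcc5, 57.3% for Trp53bp1 and 64.3% for Xrcc6, with a median of 52.7% over all promoters. These matches describe the letters only. No entry was matched for Prkdc.

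The libraries held 37951985 to 58692037 reads over genes, with 20051 to 21362 genes above 0 in each. Values are normalised reads, which are whole read counts divided by 1 size factor per library. Normalised reads of the targeted gene Ppp2ca were 32909, 33451 and 33169 in the WT libraries, and the KO libraries held 23728, 22419 and 24046. They count reads over the whole gene, and which exons were deleted is not stated. Of 15 stem and multipotent progenitor markers, all were detected in both groups and 14 were lower in KO, with a summed level of 114040 to 126894 in WT and 38473 to 56834 in KO. Summed markers of granulocyte-monocyte progenitors were at 1277490 to 1516630 in WT. Sums of different lists are not adjusted for gene length and do not give shares of cells. Summed erythroid markers (10 genes) were at 51181 to 57558 in WT and 11612 to 12956 in KO, and summed megakaryocyte markers (8 genes) at 26383 to 30401 and 5615 to 8441. Of 10 granulocyte-monocyte progenitor markers, 8 rose and 1, Irf8, fell, and their sum in KO was 145% of that in WT. Summed levels in KO were 162% of WT for neutrophil markers (10 genes), 47.2% for macrophage and dendritic cell markers (10 genes) and 23.7% for mast cell and basophil markers (8 genes). The neutrophil sums overlapped between the groups, at 83989 to 142524 in WT and 121253 to 267914 in KO. Of the neutrophil markers, 3 were called higher, 1 lower and 6 were not called. Lymphoid and stromal markers were detected too. Those of B cells (10 genes, with Ebf1 and Pax5 at 0 in all libraries) summed to 31259 to 54146 in WT and 5955 to 7193 in KO. Of the 7 B cell markers tested, 2 were called lower in KO, 0 higher and 5 were not called. Ms4a1 was at 0 in all KO libraries. Those of T and natural killer cells (10 genes, with Cd8a at 0) summed to 33960 to 35387 and 41721 to 43945, most of it Nkg7. The sum hides that, of the 8 tested, 5 were called lower in KO and 1 higher. Those of stroma and endothelium (10 genes, with Cdh5 at 0) summed to 8366 to 8823 and 2959 to 5826. Of the 7 stromal and endothelial markers tested, 6 were called lower in KO and 1 was not called, with a median log2 fold change of −4.18. Cxcl12 and Lepr were at 0 in all KO libraries. The part of this shift in the results below was not tested. In bulk libraries, fewer cells of a type and less RNA per cell cannot be told apart.

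Of the 9 genes, 2 were lower in KO and 0 were higher (limma, Benjamini-Hochberg adjusted p below 0.05 over 20136 genes tested), or 22.2%. Over all genes tested 23.3% were called, 13.0% as lower and 10.3% as higher, so the share of the 9 genes called was close to that of all genes. Both genes that fell, Trp53bp1 and Xrcc5, belong to end joining. With edgeR and with DESeq2 the counts were also 2 and 0, and at an unadjusted p below 0.05 they were 5 and 0, where 19.5% of all genes tested were lower and 16.4% higher. The 3 KO values lay below the 3 WT values in 5 genes and above them in 0, against 21.7% and 19.1% of all genes tested. All 9 mean differences were negative, as were 51.5% of those over all genes tested, with a median log2 fold change of −0.28 against −0.02. That of Brca1 was so close to 0 that it turned positive, to 0.013 without WT replicate 1 and to 0.0014 without KO replicate 1.

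**Figure D1:**
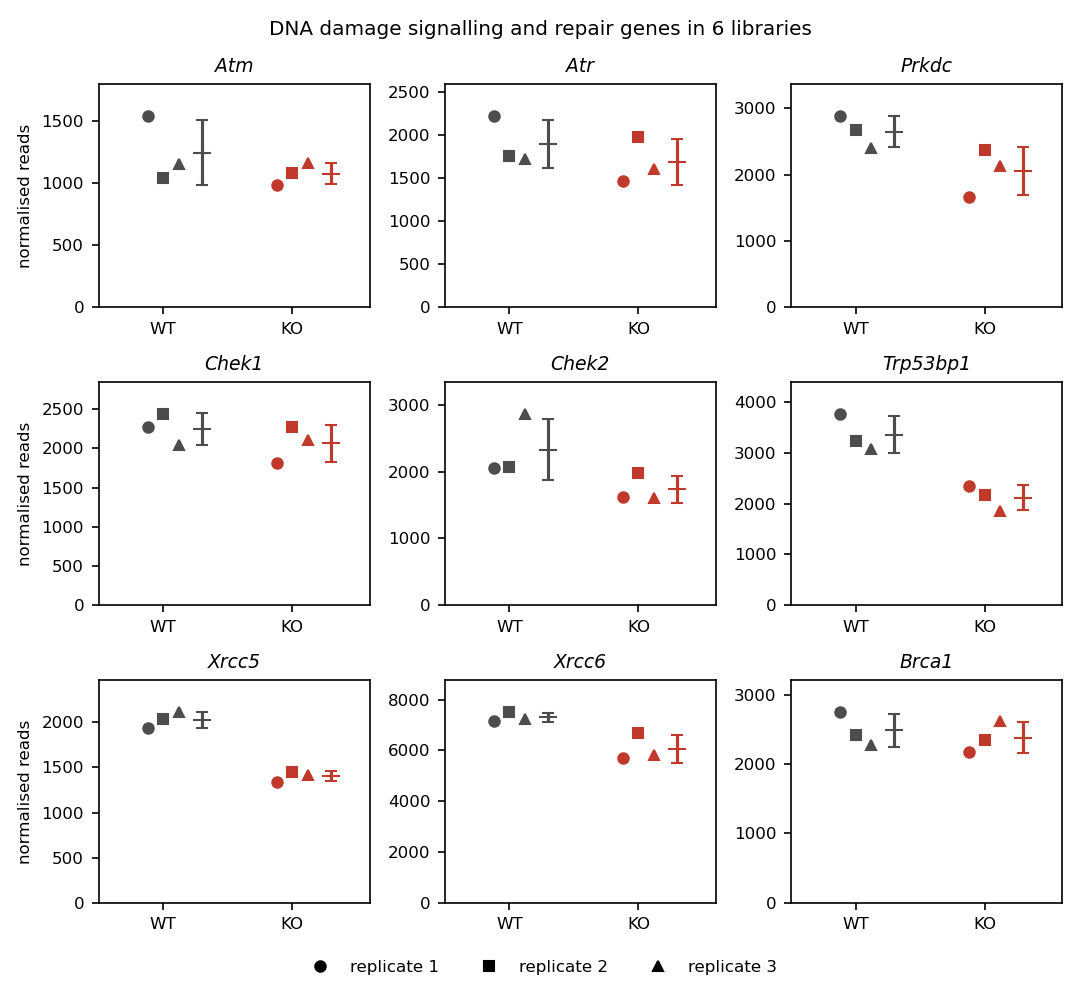
Normalised reads (y axis, from 0) of the 9 genes in the WT and KO libraries; symbols are replicates, and the horizontal mark with its bar is the mean ± SD (n = 3). The 3 KO values lie below the 3 WT values for Prkdc, Chek2, Trp53bp1, Xrcc5 and Xrcc6.

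Trp53bp1 encodes 53BP1, a chromatin-bound scaffold that shields broken ends from resection (ENSMUSG00000043909.16, GRCm38 chromosome 2, 121193281 to 121271407, minus strand). Its normalised reads were 3762, 3230 and 3079 in WT and 2337, 2164 and 1853 in KO. Every KO library was below every WT library. WT averaged 3357 ± 358.7 and KO 2118 ± 245.7 (SD, n = 3), or 63.1% of WT. On the log2 scale the difference was −0.67 ± 0.13 (SE; 95% interval −0.96 to −0.37; adjusted p = 0.00894 in limma). The p stayed below the threshold in all 16 alternatives, with adjusted p between 6.9e-05 and 0.0465. Of its exon bases, 15.0% are shared with Tubgcp4 on the opposite strand, and it is not known here whether counting used strand. Tubgcp4 averaged 2941 ± 495.1 in WT and 3352 ± 940.6 in KO and was not called (adjusted p = 0.614 in limma).

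Xrcc5 encodes Ku80 (ENSMUSG00000026187.8, chromosome 1, 72307421 to 72394952, plus strand), the partner of Ku70 in the ring that threads onto a broken end. Its normalised reads were 1940, 2031 and 2115 in WT and 1343, 1449 and 1419 in KO. The groups were far apart relative to their spread, with coefficients of variation of 4.29% in WT and 3.89% in KO. Xrcc5 averaged 2029 ± 87.1 in WT and 1403 ± 54.6 in KO (SD, n = 3), or 69.2% of WT. Its log2 fold change was −0.53 ± 0.10 (SE; 95% interval −0.76 to −0.30, adjusted p = 0.00843 in limma), and the call held in all 16 alternatives, with adjusted p between 0.000184 and 0.0410.

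Xrcc6 encodes Ku70 (ENSMUSG00000022471.13, chromosome 15, 81987835 to 82040085, plus strand). Its RefSeq start, used for the promoter above, lies inside this span. Its normalised reads were 7165, 7514 and 7241 in WT and 5688, 6666 and 5799 in KO. All KO values were below all WT values, with KO replicate 2 nearest to WT. The log2 fold change of −0.28 ± 0.09 (SE; 95% interval −0.48 to −0.07) did not pass the test (adjusted p = 0.0617 in limma). It passed without KO replicate 2 (−0.35, adjusted p = 0.0289) and with quantile normalization (−0.41, adjusted p = 0.0126). Over the 16 alternatives its adjusted p ranged from 0.0126 to 0.207. Xrcc6 shares 7.69% of its exon bases with Desi1 on the opposite strand, which rose from 1444 ± 243.5 to 2586 ± 527.5 (log2 fold change 0.83, adjusted p = 0.0163). Reads in the shared stretch cannot be assigned without strand.

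Prkdc encodes the catalytic subunit of the DNA-dependent protein kinase, which Ku recruits (ENSMUSG00000022672.8, chromosome 16, 15637866 to 15842235, plus strand). Its normalised reads were 2881, 2667 and 2403 in WT and 1661, 2378 and 2126 in KO. The groups did not overlap, but KO replicate 2 stood only just below WT replicate 3. The log2 fold change was −0.38 ± 0.15 (SE; 95% interval −0.73 to −0.03) and did not pass (adjusted p = 0.111 in limma). Without KO replicate 1 it was −0.23, and without KO replicate 2 it was −0.49 (adjusted p = 0.0565 in limma). The interval, which is not adjusted for the number of genes, reaches from near no difference to a fall larger than that of Xrcc5.

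The other apical kinases overlapped between the groups. Atm (ENSMUSG00000034218.15, chromosome 9, 53439149 to 53536740, minus strand) had normalised reads of 1537, 1038 and 1151 in WT and 986, 1085 and 1159 in KO. WT replicate 1 alone was high, and without it the log2 fold change of −0.19 ± 0.17 (SE; 95% interval −0.58 to 0.20, adjusted p = 0.476 in limma) was −0.03, and without WT replicate 2 it was −0.31. Atr (ENSMUSG00000032409.15, chromosome 9, 95857597 to 95951781, plus strand) had 2213, 1753 and 1719 in WT and 1464, 1977 and 1607 in KO. Here too WT replicate 1 was the highest library, and the log2 fold change of −0.17 ± 0.15 (SE; 95% interval −0.53 to 0.18, adjusted p = 0.479 in limma) was −0.06 without it. It was −0.08 without KO replicate 1 and −0.30 without KO replicate 2. For neither gene do the intervals show that the groups were alike.

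Chek1, the kinase that Atr activates (ENSMUSG00000032113.16, chromosome 9, 36708482 to 36727065, minus strand), had normalised reads of 2268, 2439 and 2042 in WT and 1813, 2279 and 2114 in KO. The groups overlapped, and the log2 fold change was −0.12 ± 0.12 (SE; 95% interval −0.41 to 0.16, adjusted p = 0.533 in limma), or −0.03 without KO replicate 1, −0.06 without WT replicate 2, −0.19 without WT replicate 3 and −0.20 without KO replicate 2. Chek2, the kinase that Atm activates (ENSMUSG00000029521.7, chromosome 5, 110839979 to 110874145, plus strand), had 2061, 2077 and 2869 in WT and 1623, 1977 and 1609 in KO. WT replicate 3 stood above the other 5 libraries, and every KO library was below every WT library. The log2 fold change of Chek2 was −0.42 ± 0.16 (SE; 95% interval −0.79 to −0.05) and did not pass (adjusted p = 0.101 in limma), and without WT replicate 3 it was −0.26. Without KO replicate 2 it was −0.51 and did not pass either (adjusted p = 0.0743 in limma). Whether Chek2 differed more than Chek1 was not tested.

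Brca1, which promotes end resection and loads the recombination machinery (ENSMUSG00000017146.12, chromosome 11, 101488764 to 101551955, minus strand), had normalised reads of 2752, 2427 and 2280 in WT and 2175, 2354 and 2615 in KO. The groups overlapped throughout. The KO mean was 95.8% of the WT mean (log2 fold change −0.06 ± 0.12 SE, 95% interval −0.33 to 0.21, adjusted p = 0.752 in limma). A fall as large as the −0.53 of Xrcc5 lay outside this interval. The interval of Xrcc5 itself (−0.76 to −0.30) overlaps that of Brca1, and whether Brca1 differed from Xrcc5 was not tested.

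**Figure D2:**
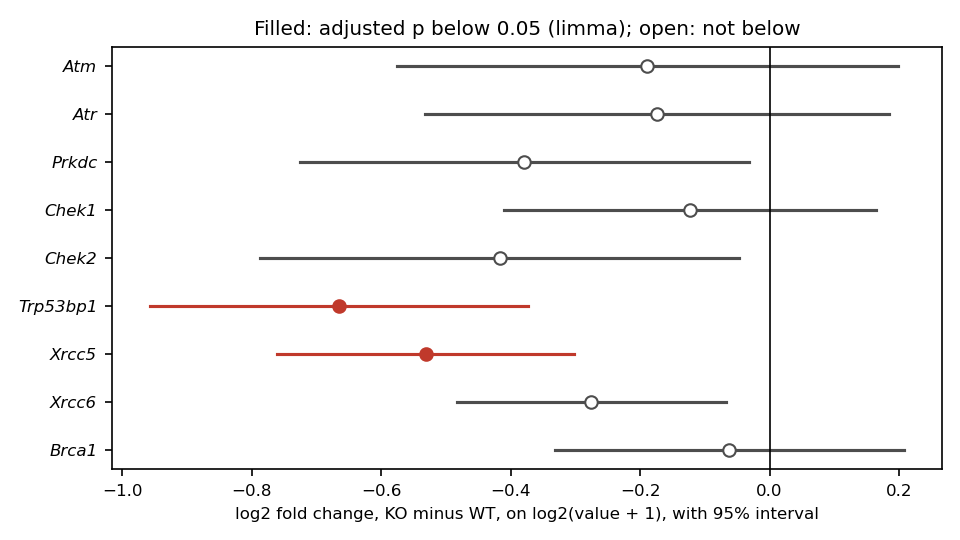
Log2 fold change, KO minus WT, of the 9 genes (points) with 95% intervals not adjusted for the number of genes (lines); filled points have an adjusted p below 0.05 in limma. Trp53bp1 (−0.67) and Xrcc5 (−0.53) are filled, and the intervals of Atm, Atr, Chek1 and Brca1 include 0.

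Levels of different genes were compared per kilobase of annotated exon (GENCODE M21, all exons of a gene merged). In WT, Xrcc6 was the highest with 1632 ± 40.9 normalised reads per kilobase (SD, n = 3), followed by Xrcc5 with 794 ± 34.1 and Chek2 with 778 ± 153.9, which did not differ beyond their spread. Chek1 stood at 485 ± 43.0, Brca1 at 291 ± 28.3 and Trp53bp1 at 237 ± 25.3, and the large kinases came last. Prkdc had 201 ± 18.1 per kilobase, Atm 120.1 ± 25.3 and Atr 80.2 ± 11.7. In KO, Trp53bp1 (149.5 ± 17.3 per kilobase) was no longer above Prkdc (155.8 ± 27.6), and these 2 did not differ beyond their spread. The same held for Xrcc5 (549 ± 21.4) and Chek2 (579 ± 69.4) in KO. The place of Atr rests on its long merged exons: per kilobase of the longest coding transcript, Atr stood at 234 in WT, above Prkdc with 210 and Atm with 126. On that length Chek2 was also above Xrcc5, with 1026 and 794 in WT and 763 and 549 in KO. Trp53bp1 then stayed above Prkdc in KO, with 220 against 163, so the change in their order rests on the merged exons. Every one of the 9 genes had at least 920 reads in each library. For Xrcc5, whose spread was small in both groups, the counting error expected from its 1253 to 2235 reads was 2.12% to 2.83%, a large part of its coefficients of variation.

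**Figure D3:**
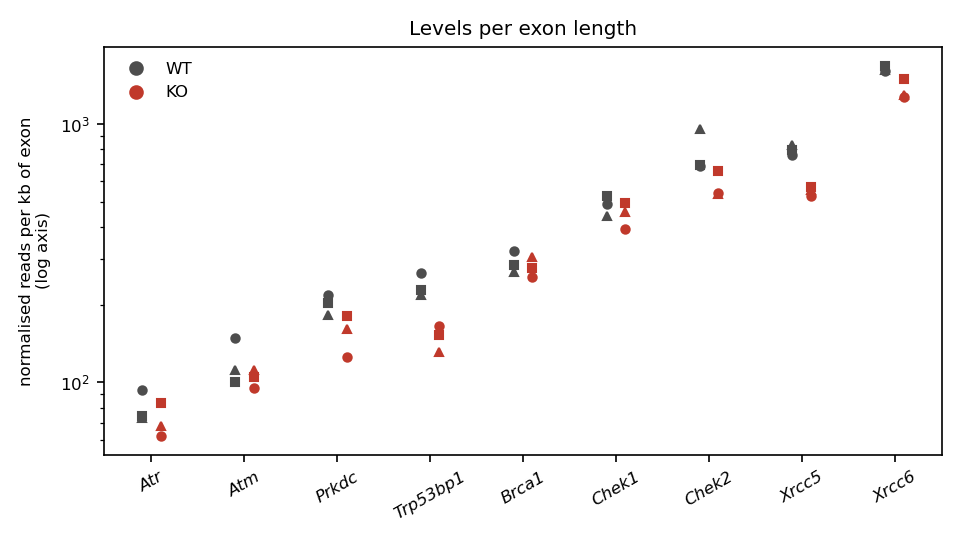
Normalised reads per kilobase of merged exon (log axis) for each gene, ordered by the WT mean, with WT and KO libraries side by side; circles, squares and triangles are replicates 1 to 3. Xrcc6 is highest (1632 in WT, 1352 in KO) and Atr lowest (80.2 in WT, 71.2 in KO).

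Around these genes stands the wider end joining machinery. Of 21 further genes tested, 3 were higher, 1 was lower and 17 did not pass (limma), with a median log2 fold change of −0.08 beside −0.02 over all genes tested. The shares were 14.3% higher and 4.76% lower, against 10.3% and 13.0% of all genes tested. Dntt, the terminal transferase that adds bases at immunoglobulin and T cell receptor joints in early lymphoid cells, fell from 7480, 8903 and 8893 in WT to 423, 1616 and 1148 in KO (−3.18 ± 0.43 SE, adjusted p = 0.00258). This call held in all 16 alternatives. Lig4, the ligase of this pathway, was low, with 79.5, 88.5 and 49.2 in WT and 124.3, 185.7 and 196.7 in KO. Its rise (1.23 ± 0.35 SE, adjusted p = 0.0388) did not hold in 8 of 16 alternatives, including those leaving out KO replicate 2, KO replicate 3 or any 1 WT replicate, with adjusted p up to 0.138. Polq, the polymerase of alternative end joining, rose by 0.66 on the log2 scale, a call lost in 10 of 16 alternatives. With WT replicate 2 or 3 or KO replicate 2 or 3 left out, 1 gene was called higher instead of 3, and without KO replicate 1, 2 were called lower. Some of the proteins that act with Trp53bp1 at breaks, named here for that role after the values were seen, were not called. Rif1 averaged 3861 in WT and 3468 in KO, Paxip1 5180 and 6084, and Mad2l2 911 and 944. For Paxip1 every KO library was above every WT library (adjusted p = 0.128 in limma), while Rif1 and Mad2l2 overlapped.

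Of 33 homologous recombination partners, 4 rose (12.1%, against 10.3% of all genes tested) and 1 fell (3.03%, against 13.0%). The other 28 did not pass, and the median was 0.05. Eme1, a subunit of a structure-selective nuclease, was at 2912 ± 176.9 in WT and rose to 4581 ± 307.0 in KO (0.65 ± 0.09 on the log2 scale, SE; adjusted p = 0.00340 in limma). Dna2, a nuclease of long-range resection, rose from 2991 ± 125.0 in WT to 4216 ± 275.6 in KO (0.49 ± 0.09 SE, adjusted p = 0.00823). Both held in all 16 alternatives. Sem1, a small partner of Brca2, rose by 0.39, a call lost in 6 of 16. Rad51b, a recombination mediator, fell by 0.72 on the log2 scale and lost its call in 5 of 16. Brca2, a mediator of strand exchange, averaged 1902 ± 68.3 in WT and 1990 ± 60.9 in KO and was not called (adjusted p = 0.670). With replicate 1 of either group, WT replicate 2 or KO replicate 3 left out, 2 genes were called higher. Without any 1 WT replicate or without KO replicate 3, 0 were called lower, with 1 lower in edgeR and in DESeq2 on all libraries and 4 lower at an unadjusted p below 0.05.

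Sensing and checkpoint partners were counted in the same way. Of 27 tested, 4 rose (14.8%, against 10.3% of all genes tested) and 2 fell (7.41%, against 13.0%). The other 21 did not pass, and the median was 0.01. Hus1, a part of the clamp that helps activate Atr, rose from 1138, 1155 and 1110 to 1440, 1940 and 2026 (log2 fold change 0.65, adjusted p = 0.0177 in limma), and Tipin, a fork protection factor, rose by 0.37. Etaa1, a second activator of Atr, fell from 2752 ± 200.7 to 1964 ± 177.1 (−0.49, adjusted p = 0.0171), and the phosphatase Cdc25b, which Chek1 opposes, fell by 0.46. Each of these calls was lost in 3 to 5 of 16 alternatives, all 4 of them without KO replicate 3, when 0 partners were called in either direction; edgeR called 4 and 2, and 5 and 3 had an unadjusted p below 0.05 with all libraries. Without WT replicate 2, 1 was higher, without KO replicate 1 or KO replicate 2, 2 were higher, and without any 1 WT replicate or KO replicate 1, 1 was lower. The break-binding complex of Mre11a, Rad50 and Nbn averaged 2754, 6098 and 3283 in WT and 2688, 5382 and 2974 in KO, with adjusted p of 0.831, 0.132 and 0.420 in limma. With quantile normalization Rad50 passed (−0.29, adjusted p = 0.0372). H2afx, the histone that Atm marks (adjusted p = 0.519), Mdc1, which binds that mark (0.643), the Atr partner Atrip (0.528), Wee1 (0.767) and Cdc25a (0.632) were not called either.

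Of 16 Fanconi anemia genes, which repair crosslinks, 3 fell (18.75%, against 13.0% of all genes tested) and 1 rose (6.25%, against 10.3%). Ube2t, the ubiquitin-conjugating enzyme of the pathway, fell from 2204 ± 139.9 in WT to 1434 ± 46.9 in KO (−0.62 ± 0.10 on the log2 scale, SE; adjusted p = 0.00501 in limma), and its call held in all 16 alternatives. Fancl, its ligase partner (−0.41), and Fancc (−0.47) fell and Fanca rose (0.51), calls lost in 7, 8 and 5 of 16 alternatives. With replicate 1 of either group, WT replicate 2 or KO replicate 3 left out, 1 gene was called lower. Without WT replicate 2, 2 were called higher, and with WT replicate 1 or 3 or KO replicate 1 or 2 left out, 0 were, with 1 in edgeR and in DESeq2 on all libraries and 3 higher at an unadjusted p below 0.05.

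**Figure D4:**
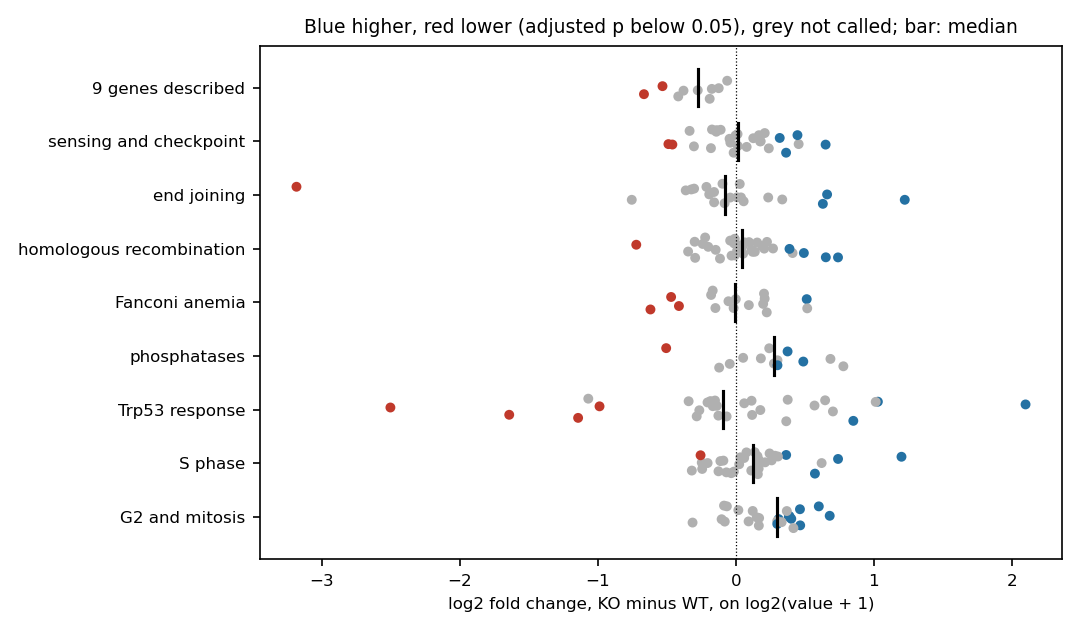
Log2 fold change, KO minus WT, of every tested gene of the 9 genes described and of 8 lists around them (rows); blue is higher and red lower at an adjusted p below 0.05, grey is not called, and bars are medians. The 9 genes have a median of −0.28, the end joining partners −0.08 and the G2 and mitosis genes 0.30.

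Of 13 phosphatase genes known to act on damage signalling, 3 rose (23.1%, against 10.3% of all genes tested) and 1 fell (7.69%, against 13.0%). The median was 0.28. The fall was that of Ppp2ca itself (−0.50 on the log2 scale, adjusted p = 0.00268 in limma). Ppm1g rose by 0.49, Ppp4r3b, a regulatory subunit of protein phosphatase 4, by 0.38, and Ppp1cc by 0.30, calls lost in 4, 7 and 8 of 16 alternatives. Without WT replicate 1 or KO replicate 3, 0 were called higher, and without WT replicate 2 or KO replicate 1, 1 was; edgeR called 4 and DESeq2 5 on all libraries, and 7 were higher at an unadjusted p below 0.05, as were 16.4% of all genes tested. Ppp4c, the catalytic subunit that acts on H2afx, averaged 7126 ± 381.6 in WT and 8436 ± 576.3 in KO (0.24, adjusted p = 0.0839), and passed with upper quartile scaling (0.29, adjusted p = 0.0360). Ppm1d, a phosphatase that ends checkpoint signals, averaged 2309 ± 99.8 and 2131 ± 227.0 (−0.12, adjusted p = 0.497).

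The next list held 28 genes, which were Trp53, the transcription factor downstream of Atm and Chek2, its regulators and its response genes. Of the 28, 3 rose (10.7%, against 10.3% of all genes tested) and 4 fell (14.3%, against 13.0%), shares close to those of all genes. The other 21 did not pass, and the median was −0.10. Pmaip1, which encodes the cell death protein Noxa, rose from 1303, 1626 and 896 in WT to 6418, 4075 and 5745 in KO (2.10 ± 0.24 on the log2 scale, SE; adjusted p = 0.00162 in limma), and Gadd45a, a growth arrest gene, rose to 205% of its WT level. Sesn1, a stress-induced sestrin, fell from 4930, 4229 and 5503 to 1211, 1939 and 1604 (−1.64 ± 0.18 SE, adjusted p = 0.00145), and the kinase gene Plk2 fell to 16.6%. These 4 calls held in all 16 alternatives. Trp53 itself averaged 18207 ± 1216 in WT and 14473 ± 2288 in KO and was not called (−0.34, adjusted p = 0.0879), but it passed without KO replicate 2 (−0.44, adjusted p = 0.0412) and with quantile normalization (−0.57, adjusted p = 0.0110). Its targets Cdkn1a (adjusted p = 0.313) and Mdm2 (0.241) were not called.

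Cell cycle genes are given beside these results because Chek1, Brca1 and many repair genes are transcribed mainly in S and G2 phase. Of 24 G2 and mitosis genes, 9 rose (37.5%, against 10.3% of all genes tested) and 0 fell (against 13.0%) in limma. Their median was 0.30. With edgeR 1 fell, with DESeq2 0 fell, and 1 fell at an unadjusted p below 0.05 in limma. Ccnb1, the mitotic cyclin, rose from 12280 ± 439.9 to 18657 ± 1124 (log2 fold change 0.60, adjusted p = 0.00237), and Cdk1 by 0.47. Without WT replicate 1, WT replicate 2 or KO replicate 1, 5 were called higher, and without KO replicate 3, 3 were. On all libraries, 1 was called higher without the intensity trend of limma and 4 were with quantile normalization. Of 32 S phase genes, 4 rose (12.5%) and 1 fell (3.1%, against 13.0% of all genes tested), with a median of 0.13. Rrm2, a subunit of ribonucleotide reductase, rose from 15770 ± 1435 to 36293 ± 3617 (1.20, adjusted p = 0.00072), and Mcm2, of the replicative helicase, was not called (adjusted p = 0.587). The fall, of Prim1, was absent when any library other than KO replicate 2 was left out. The summed G2 and mitosis level was 197321 to 219128 in WT and 243143 to 252563 in KO, and its part in the values of Chek1 and Brca1 was not tested.

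For each of the 9 genes, the tested gene with the most similar profile over the 6 libraries was sought among 12057 genes averaging at least 100 normalised reads, by Pearson correlation of log2 values, as a description. The best match was Tdrd3 for Atm, Ids for Atr, Hars2 for Prkdc, Ankle2 for Chek1, Map4k1 for Chek2, Mbip for Trp53bp1, Nfkbie for Xrcc5, Pkn3 for Xrcc6 and Tfap4 for Brca1. The coefficients ran from 0.975 for Brca1 to 0.999 for Xrcc5. With 6 libraries that differ in genotype and share their size factors, many genes reach such values.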

How the data were processed

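Per the labels' protocols, poly(A) RNA was made into libraries with a VAHTS mRNA-seq v2 kit. The submitters' processing notes list HISAT2 and StringTie as tools and mm8 with mm10 as builds, with no roles. Each deposited file holds 1 signal value per gene, which the file headers call expression. Every value (100%) was a whole multiple, within 0.01 of a read, of 1 step per library, so the authors' values are read counts divided by a size factor, and division by the step gave whole reads. Coordinates are given as GRCm38, since the 49035 identifiers that GENCODE M21 holds in the same version have equal coordinates there. The counting method was not given in the sources used here. All 37 mitochondrial genes were listed at 0.

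The 9 genes and the 18 lists (295 of 296 symbols matched, 2 by a synonym) were chosen with earlier results of these data known. KO and WT (3 libraries each) were compared with limma 3.58.1 in R 4.3.3 (eBayes, variance trended on intensity). The fit used log2(value + 1) of the 20136 genes that reached 1 in at least 3 libraries. Tests were two-sided, with Benjamini-Hochberg adjustment and a threshold of 0.05. Fold changes on this scale understate changes of low genes. The quasi-likelihood test of edgeR 4.0.16, run on recovered reads, called 2075 genes higher and 2496 lower, and DESeq2 1.42.0 was a further alternative. Named besides the 9 genes were Ppp2ca, up to 4 genes with the smallest p in each of 8 pathway lists with a mean of at least 100 in the higher group, and genes fixed whatever their p. Some genes the rule takes are left out, as they are not reported here. No libraries agreed within sampling noise (chi-square per degree of freedom 41.0 or more). The procedure was tested on simulated data, where the share of false calls was above the nominal threshold. Only at the largest simulated fold change were most changes called, and fewer genes were changed there than were called in the data. Reads carry no molecular identifiers, so counts are not of independent molecules.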

Additional observations from a re-analysis of the deposited data

How the results depend on the processing

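The calls of Trp53bp1 and Xrcc5 held in all 16 alternatives, and Atm, Atr, Prkdc, Chek1, Chek2 and Brca1 passed in none. Over all genes, 2069 were higher and 2622 lower, 23.3% in all. Without the intensity trend 1071 were higher. Leaving out 1 library at a time gave 978 to 1808 higher and 1617 to 2548 lower genes. Quantile normalization moved the median over all genes tested by 0.10 on the log2 scale, and it alone turned Mcm2 (−0.19) and Cdc25a (−0.011). Upper quartile scaling turned Wee1 (log2 fold change 0.0023) and Mre11a (0.0083), and gave 2464 genes higher and 2472 lower. Leaving out 1 library at a time gave log2 fold changes on both sides of 0 for Brca1 (−0.13 to 0.013), Mre11a (−0.092 to 0.044) and Mdc1 (−0.026 to 0.34), none of them called.

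The counts of list genes called higher ranged over the alternatives from 0 to 5 (sensing), 1 to 3 (end joining), 2 to 4 (homologous recombination), 0 to 2 (Fanconi), 0 to 5 (phosphatases), 2 to 5 (Trp53 response), 2 to 7 (S phase) and 1 to 12 (G2 and mitosis). Those called lower ranged from 0 to 3, 1 to 2, 0 to 2, 1 to 3, 1 to 1, 2 to 4, 0 to 5 and 0 to 1 in the same order. With the replicate number as a block, 1705 genes were higher and 2157 lower. Same-numbered libraries did not deviate together (r = −0.03, 0.01 and −0.01 over 13290 genes), and not every library correlated best with its own number. The labels give no litter, batch or day, and this check cannot show that same-numbered libraries shared none. The cause of these changes was not tested. Leaving out a library also lowers the number of samples, and the part of this was not tested either.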

Other observations

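The balance within pairs of genes was taken as a ratio inside each library, which does not depend on scaling between libraries. These pairs were chosen after the values were seen, and no test was run. Xrcc5 reads per Xrcc6 read, the 2 Ku subunits, were 0.271, 0.270 and 0.292 in WT and 0.236, 0.217 and 0.245 in KO, lower in every KO library. Trp53bp1 reads per Brca1 read, whose proteins favour opposite repair routes, were 1.37, 1.33 and 1.35 in WT and 1.07, 0.919 and 0.708 in KO, again without overlap. Atm reads per Atr read overlapped, with 0.695, 0.592 and 0.669 in WT and 0.673, 0.549 and 0.721 in KO, and so did Chek1 reads per Chek2 read, with 1.10, 1.17 and 0.712 in WT and 1.12, 1.15 and 1.31 in KO.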
